A study of Mus musculus with 6 samples.

Results

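Proteasome genes were examined in mouse bone marrow macrophages on their way to becoming osteoclasts, the multinucleate cells that resorb bone. They were taken as every gene whose symbol is Psm, a letter from a to g and a number, and which lists a protein-coding transcript. The rule took 47 of 26699 genes, and all 47 passed the filter on low counts. The control cells were of genotype Slc11a2flox/flox and carried no Cre. The conditional knockout cells (cKO) were LysmCre-Slc11a2flox/flox, in which Cre recombinase is driven by the lysozyme M promoter, active in the myeloid lineage, so that effects of Cre and of Slc11a2 loss cannot be told apart. Slc11a2 encodes the ferrous iron transporter DMT1. Both genotypes came from mice aged 8 weeks, were first grown in M-CSF, a growth factor of macrophages, at 10 ng/mL, and then received 30 ng/mL M-CSF with 50 ng/mL of the osteoclast cytokine RANKL for 48 hours. There were 3 polyadenylated RNA libraries per genotype. The labels do not say whether each came from its own mouse or culture, so p-values here reflect differences among the libraries alone, and those may be technical.

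The proteasome is the barrel-shaped protease that degrades proteins tagged with ubiquitin. Its core is made of outer alpha and inner beta rings, and only some beta subunits cut peptide bonds. A regulatory particle on each end holds a ring of ATPases that unfold the substrate and a lid that removes ubiquitin. Interferon and inflammatory signals replace the catalytic beta subunits by immunoproteasome forms, which favour peptides suited to MHC class I. Proteasome genes are known to be induced together by the transcription factor NRF1, encoded by Nfe2l1, when proteasome activity falls short. Proteasome inhibitors are known to limit osteoclast formation, which depends on degradation of the inhibitor of NF-kB.

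Total counts ranged from 49720701 to 57797282 per library, and the 47 genes held 0.292% to 0.325% of them. Values are CPM (counts scaled to library size with TMM factors), listed for replicates 1 to 3 or as mean ± SD with n = 3 per genotype. Log2 fold changes are cKO over control, given ± their standard error (SE), and a bare number in parentheses after one is edgeR's adjusted p. Slc11a2 read 119, 110 and 118 CPM in the controls against 78.3, 82.8 and 87.4 CPM in the knockouts (-0.48 ± 0.06, edgeR quasi-likelihood adjusted p = 0.00219). Lyz2, the gene whose promoter drives the Cre, averaged 17105 ± 1577 against 7783 ± 96.8 CPM (-1.14 ± 0.08, 9.39e-06). Of 16843 genes tested, 407 were called at an adjusted p below 0.05, which is 2.42%. All 7 macrophage markers and all 10 osteoclast markers in the lists used were present above 1 CPM.

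Differences of proteasome genes were small and mostly negative in cKO cells, and few passed the test. Of the 47 genes, 42 (89.4%) had a negative log2 fold change, against 49.6% of all genes tested, and the median was -0.147 against 0.001. Just 2 genes fell (4.26%, against 1.06% of all genes tested that were called lower), Psmd6 and Psmd5, and 0 rose, against 1.36% of all genes. The share called lower was higher among short genes above 3 log2 CPM. It was 4.55%, 3.28% and 2.75% in the 3 shortest of 10 length groups, which held 9, 9 and 10 of the proteasome genes. With DESeq2 6 genes fell (12.8%, against 3.24%) and 0 rose. An unadjusted p below 0.05 was found for 17 genes (36.2%, against 17.2%). In 24 genes (51.1%) all 3 cKO libraries lay below all 3 control libraries, which held for 11.4% of all genes tested. The members differed among themselves, from -0.41 in Psmg1 to 0.23 in Psmb9. Fewer cells of a type and less RNA per cell cannot be told apart in these bulk samples.

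**Figure D1:**
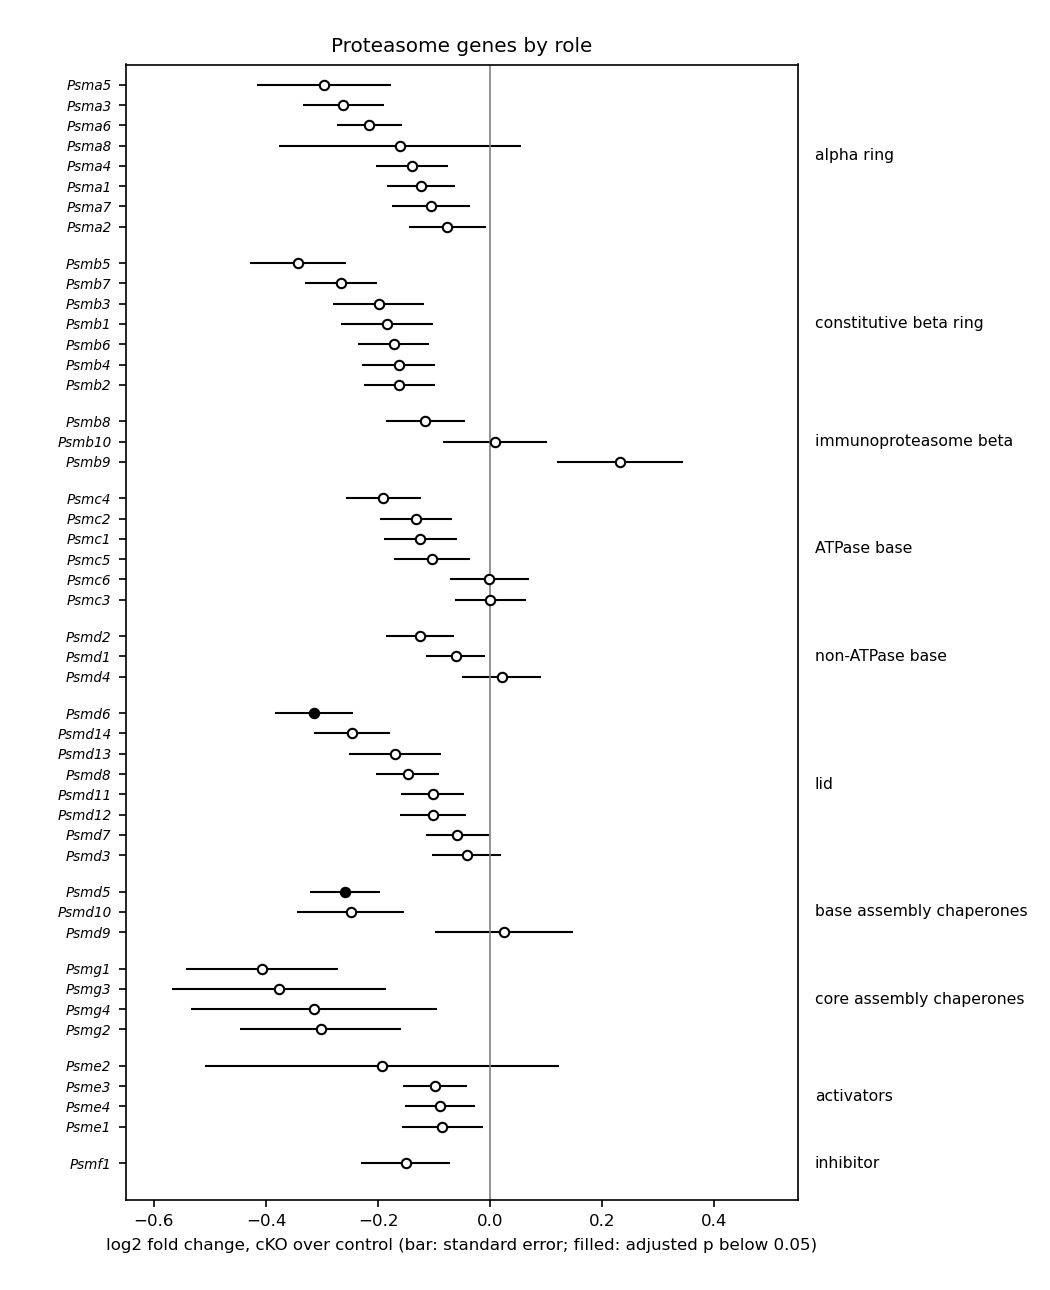
Log2 fold change of each of the 47 proteasome genes (x axis, cKO over control) with its standard error, grouped by role, with filled points at an adjusted p below 0.05. The 2 filled points are Psmd6 and Psmd5, most points lie left of 0, and Psmb9 lies furthest to the right at 0.23.

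Other fits called other numbers of proteasome genes lower. There were 4 with limma-voom (1.68% of all genes), 1 with RLE size factors (1.02%), 0 with library totals (0.677%) and 1 with no filter (0.73%). With the length trend removed 1 was called, Psmd5 (0.665%), with the replicate block 3 (2.12%), and with both 1 (1.93%). Dropping a control library left 0 called (replicates 1, 2 and 3 in turn, with 0.149%, 0.351% and 0.213% of all genes). Dropping cKO replicate 1 or 3 left 0 (0.116% and 1.79%), and dropping cKO replicate 2 left 1, Psmb5 (0.641%).

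The shift was present in every cKO library but was uneven. Relative to the control mean, the median of the 47 genes was 0.042, -0.009 and -0.029 on the log2 scale in control replicates 1 to 3. It was -0.179, -0.074 and -0.162 in cKO replicates 1 to 3. The 3 cKO medians lay below the 3 control medians, and cKO replicate 2 was the nearest to them. Of the 47 genes, 23 had their lowest level of all 6 libraries in cKO replicate 1 and 16 in cKO replicate 3, and 26 had their highest in control replicate 1.

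**Figure D2:**
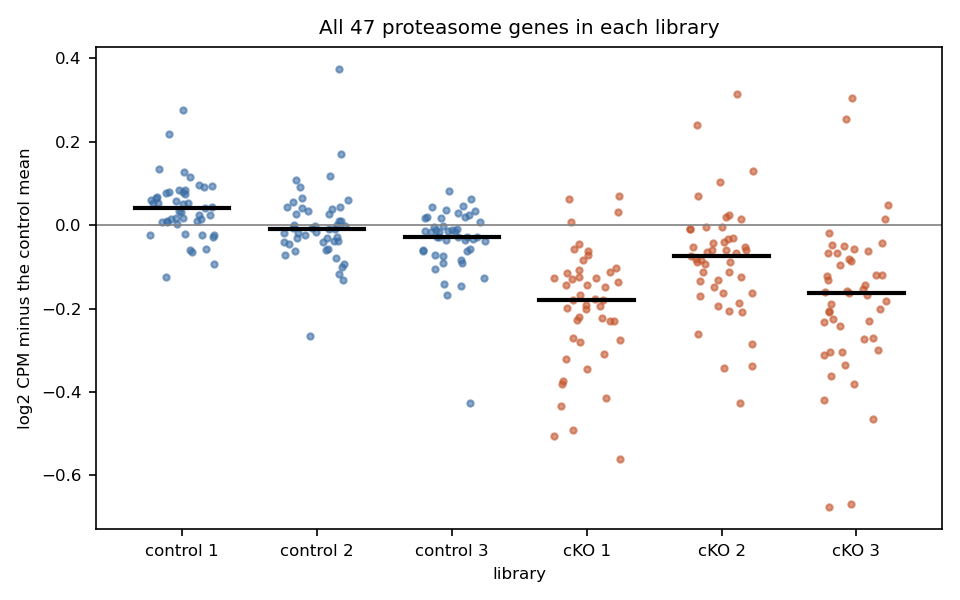
Log2 CPM minus the control mean (y axis) of all 47 proteasome genes in each library (x axis), with 1 point per gene and a bar at the median. The medians are 0.042, -0.009 and -0.029 in the control libraries and -0.179, -0.074 and -0.162 in the cKO libraries.

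Psmd6 encodes a non-ATPase subunit of the lid (ENSMUSG00000021737, chromosome 14, 14112174 to 14120984, minus strand, mm10). It read 43.8, 48.7 and 44.8 CPM in the controls against 36.0, 38.1 and 36.2 CPM in the knockouts. All cKO values were below all control values. The log2 fold change was -0.32 ± 0.07 (SE, n = 3 per genotype, edgeR adjusted p = 0.0372), a fall of 19.6%. Psmd5 encodes a chaperone that helps to assemble the base of the regulatory particle (ENSMUSG00000026869, chromosome 2, 34849734 to 34874968, minus strand). It read 57.1, 54.4 and 58.3 CPM in the controls against 48.5, 46.4 and 46.9 CPM in the knockouts, again with no overlap. Its log2 fold change was -0.26 ± 0.06 (SE, edgeR adjusted p = 0.0499), just inside the threshold. Neither call held in any of the 6 fits that leave out 1 library, in which the adjusted p ranged from 0.0564 to 0.201 for Psmd6 and from 0.075 to 0.184 for Psmd5. The call of Psmd6 was also lost with library totals in place of TMM and with the trend over transcript length removed. That of Psmd5 was also lost with RLE factors, with library totals, with no filter and with limma-voom.

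The promoters of these 2 genes and of 2 catalytic subunits are shown because NRF1 is known to act through antioxidant response elements (ARE), whose core reads TGACNNNGC. The sequences are RefSeq promoters on GRCm38.p6, the assembly also called mm10, read 5′ to 3′ on the gene's strand and limited to bases outside every GENCODE exon. Capitals mark an ARE core. The stretch of Psmd6 is chr14:14120985-14121104 on the minus strand, that of Psmd5 chr2:34870963-34871082 on the minus strand, inside the gene's span in the files, that of Psmb5 chr14:54618023-54618142 on the minus strand, and that of Psmb6 chr11:70525237-70525356 on the plus strand.
Psmd6: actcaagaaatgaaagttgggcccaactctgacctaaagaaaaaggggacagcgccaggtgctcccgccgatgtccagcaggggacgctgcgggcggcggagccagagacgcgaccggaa
Psmd5: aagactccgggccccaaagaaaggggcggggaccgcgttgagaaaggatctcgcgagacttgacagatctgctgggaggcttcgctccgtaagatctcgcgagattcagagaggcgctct
Psmb5: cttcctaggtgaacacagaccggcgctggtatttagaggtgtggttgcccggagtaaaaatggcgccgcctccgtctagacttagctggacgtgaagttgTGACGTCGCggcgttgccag
Psmb6: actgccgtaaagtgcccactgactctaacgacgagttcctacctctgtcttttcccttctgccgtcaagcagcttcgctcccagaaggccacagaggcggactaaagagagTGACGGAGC

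The ARE core was searched on both strands from 250 bases before to 50 bases after the RefSeq start, in the 39 of 47 genes with a promoter in the table. It was found in 6, namely Psmb5, Psmb6, Psmc6, Psmd12, Psmd9 and Psme4, against 3781 of all 27025 genes with a promoter, or 12.4% of all 32851 promoters in the table. These 6 ranged in log2 fold change from -0.34 in Psmb5 to 0.02 in Psmd9. The CCAAT box, written CCAAT, was found in 13 of the 39 (41.1% of all genes), and the core of the interferon-stimulated element, a pair of GAAA separated by 2 bases, in 5 of the 39 (3.99% of all genes). Those 5 were Psmb3, Psmd4, Psmd9, Psme1 and Psmg4. Such matches describe letters and are not binding sites.

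The genes of the alpha ring, which gates entry to the core, all had negative log2 fold changes. Of 8 alpha genes, 0 passed, the median was -0.150 and in 4 all cKO libraries lay below all control libraries (11.4% of all genes tested). Psma5 read 43.6, 35.5 and 34.0 CPM in the controls against 28.1, 36.0 and 28.0 CPM in the knockouts. Its cKO replicate 2 lay inside the control range, and the log2 fold change was -0.30 ± 0.12 (SE, edgeR adjusted p = 0.243). Psma3 was at -0.26 ± 0.07 (0.0841) and Psma6 at -0.22 ± 0.06 (0.0805), both without overlap and both called by DESeq2. Psma2 had the smallest difference, -0.08 ± 0.07 (0.625). Psma8, a form of the testis, was hardly expressed, at 0.753 FPKM (a level per transcript length and library size) in control cells.

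The constitutive beta ring holds the catalytic sites. All 7 of its genes were negative, from -0.34 to -0.16 with a median of -0.184, all 7 had an unadjusted p below 0.05 (17.2% of all genes tested), and 0 passed with edgeR. In 6 of the 7, Psmb1 being the exception, all cKO libraries lay below all control libraries (11.4% of all genes). Psmb5 encodes the subunit with chymotrypsin-like activity, the main target of proteasome inhibitors (ENSMUSG00000022193, chromosome 14, 54614119 to 54618022). It read 46.0, 48.1 and 46.3 CPM in the controls against 34.7, 42.2 and 33.9 CPM in the knockouts. The control libraries were close together, and cKO replicate 2 was nearest to them. The log2 fold change was -0.34 ± 0.09 (SE, edgeR adjusted p = 0.0594), just outside the threshold, and Psmb5 was called by DESeq2, by limma-voom and without cKO replicate 2 (0.0177). Psmb7, with trypsin-like activity, read 51.5, 49.3 and 50.2 CPM in the controls against 40.3, 43.6 and 41.6 CPM in the knockouts. Its log2 fold change was -0.27 ± 0.06 (edgeR adjusted p = 0.0508), and Psmb7 was called by DESeq2 (0.0197) and limma-voom (0.0381). The row of Psmb7 overlaps that of Nek6 on the opposite strand by 6571 bases. Psmb6, with caspase-like activity, was at -0.17 ± 0.06 (0.194) and averaged 57.5 ± 2.76 against 51.0 ± 1.72 CPM. Psmb2 had the smallest difference of the ring, -0.16 ± 0.06 (0.222).

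The immunoproteasome genes were not lower together. Of the 3 genes 0 passed, at an unadjusted p below 0.05 too, and their median was 0.009. Psmb9, which takes the place of Psmb6 (ENSMUSG00000096727, chromosome 17, 34181987 to 34187764), read 11.7, 11.9 and 11.1 CPM in the controls against 12.05, 14.4 and 14.3 CPM in the knockouts. It was the only proteasome gene in which all cKO libraries lay above all control libraries (2.13% of the 47, against 11.1% of all genes tested), by a narrow margin in cKO replicate 1. The log2 fold change was 0.23 ± 0.11 (SE, edgeR adjusted p = 0.317). Its row overlaps that of Tap1 on the opposite strand by 212 bases, and the sources used here do not say whether counting used the strand. Tap1, a subunit of the peptide transporter, was at -0.05 ± 0.09 (0.822). Psmb8, the partner of Psmb5, read 45.6, 44.7 and 40.5 CPM in the controls against 40.0, 41.8 and 39.0 CPM in the knockouts, with overlap (-0.12 ± 0.07, 0.444). Psmb10, the partner of Psmb7, averaged 30.5 ± 3.41 against 30.7 ± 2.11 CPM (0.01 ± 0.09, 0.975), and its sign changed with the library left out.

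Each immunoproteasome gene was set against the constitutive gene it replaces, as a ratio of FPKM. Psmb9 over Psmb6 read 0.0978, 0.109 and 0.101 in the controls against 0.125, 0.139 and 0.142 in the knockouts. The cKO ratios were all above the control ratios, by 1.32-fold on average. Psmb8 over Psmb5 was 0.248 ± 0.0155 (SD, n = 3) in control and 0.292 ± 0.0246 in cKO cells, and Psmb10 over Psmb7 was 1.22 ± 0.155 and 1.47 ± 0.091. In these 2 ratios the genotypes overlapped. A two-sided exact permutation test gave p = 0.1 for Psmb9 over Psmb6 and p = 0.2 for each of the others, and 0.2 for all 3 after Benjamini-Hochberg adjustment. With 3 libraries against 3 the smallest p is 0.1, so this design cannot pass 0.05. The absolute ratios depend on the length used: per kilobase of the longest coding transcript, control cells had 0.515, 0.119 and 0.537 for Psmb8 over Psmb5, Psmb9 over Psmb6 and Psmb10 over Psmb7.

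**Figure D3:**
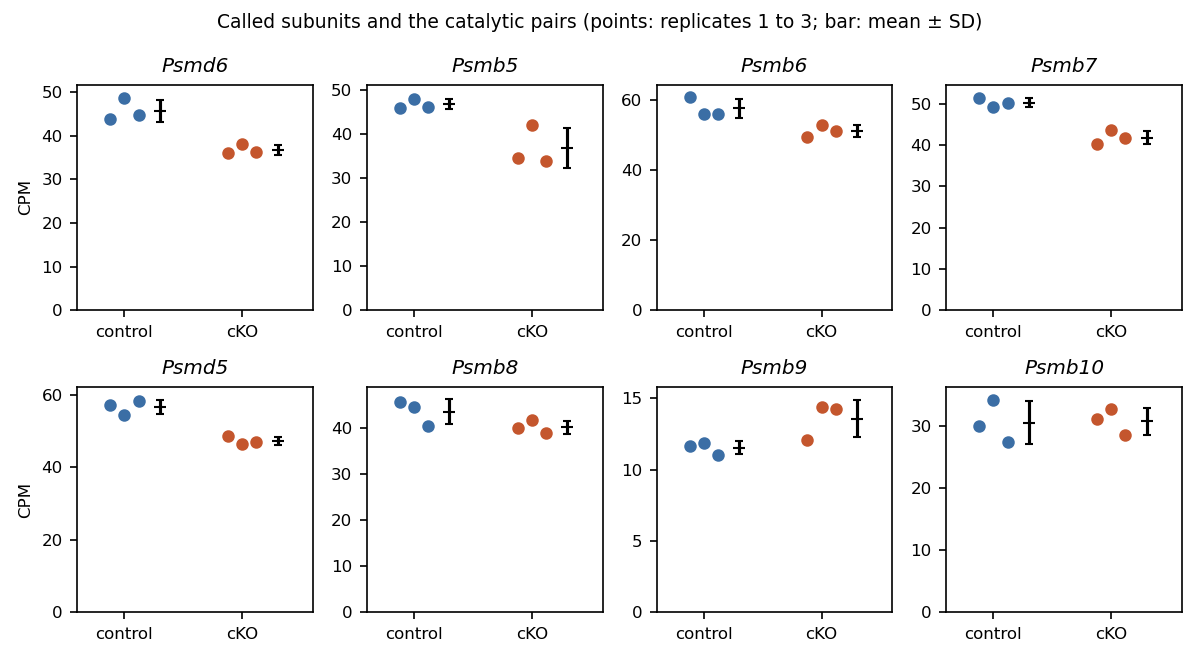
CPM (y axis, from 0) of the 2 called genes Psmd6 and Psmd5 and of the catalytic pairs Psmb5 and Psmb8, Psmb6 and Psmb9, and Psmb7 and Psmb10, in 3 control and 3 cKO libraries, with mean ± SD. Psmd6 and Psmd5 have no overlap between genotypes, and Psmb9 is the gene in which all cKO points lie above the control points.

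The base of the regulatory particle had medians nearer to 0 than the alpha and constitutive beta rings, a difference that was not tested. The 6 ATPases, which unfold substrates and thread them into the core, had a median of -0.114, 0 of them passed and 2 had all cKO below all control libraries (11.4% of all genes tested). Psmc4 had the most negative value, -0.19 ± 0.07 (SE, edgeR adjusted p = 0.169), from 67.1 ± 1.18 to 58.8 ± 4.45 CPM. Psmc3 and Psmc6 were at 0.00 ± 0.06 and 0.00 ± 0.07, with 112 ± 6.64 and 112 ± 5.90 CPM for Psmc3. The row of Psmc3 overlaps Slc39a13 on the opposite strand. Of the 3 non-ATPase base genes 0 passed either. Psmd2 and Psmd1, the large scaffold subunits, were at -0.12 ± 0.06 (0.323) and -0.06 ± 0.05 (0.610), and Psmd4, a ubiquitin receptor, at 0.02 ± 0.07 (0.916).

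All 8 lid genes were negative (median -0.125), and 1 of them, Psmd6, fell (1.06% of all genes tested). Psmd14 encodes the metalloprotease that cuts ubiquitin chains off the substrate. It read 54.2, 56.2 and 55.0 CPM in the controls against 44.5, 50.2 and 44.8 CPM in the knockouts. The genotypes did not overlap, and the log2 fold change was -0.25 ± 0.07 (SE, edgeR adjusted p = 0.084), called by limma-voom alone (0.0499). Psmd8, the most abundant lid gene, averaged 223 ± 8.23 against 202 ± 7.36 CPM (-0.15 ± 0.06, 0.211). Psmd13 was at -0.17 ± 0.08 (0.316), and its row overlaps Gm15542 on the same strand. Psmd11, Psmd12, Psmd7 and Psmd3 lay between -0.10 and -0.04 and did not pass.

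Assembly chaperones of the core had the most negative median of the roles, at low levels. All 4 Psmg genes were negative, with a median of -0.346, and 0 passed. Psmg1, which guides alpha ring assembly as a pair with Psmg2, read 7.46, 8.82 and 8.18 CPM in the controls against 5.72, 6.41 and 6.32 CPM in the knockouts. There was no overlap, and the log2 fold change was -0.41 ± 0.14 (SE, edgeR adjusted p = 0.148). Psmg3 was at -0.38 ± 0.19 (0.339), Psmg4 at -0.31 ± 0.22 (0.511) and Psmg2 at -0.30 ± 0.14 (0.307). Psmg1 to Psmg4 lay at 1.46 to 5.23 FPKM in control cells, against 10.4 to 48.0 FPKM for the 14 housekeeping core subunits. Of the 3 base chaperones 1 fell, Psmd5 (1.06% of all genes tested). Psmd10, also called gankyrin, was at -0.25 ± 0.10 (0.208) and Psmd9 at 0.02 ± 0.12 (0.945), whose sign changed with the library left out.

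Activators cap the core in place of the regulatory particle. Of the activator genes Psme1 to Psme4, 0 of 4 passed, with a median of -0.093. Psme1, a subunit of the interferon-induced cap of the core, was at -0.09 ± 0.07 (SE, edgeR adjusted p = 0.603), nuclear Psme3 at -0.10 ± 0.06 (0.408) and Psme4, a large cap protein, at -0.09 ± 0.06 (0.513). Psmf1, an inhibitor of the core in vitro, was at -0.15 ± 0.08 (0.361). Psme2, the partner of Psme1, had the largest SE of the 47 genes. It read 29.9, 37.4 and 21.4 CPM in the controls against 25.4, 34.1 and 18.1 CPM in the knockouts, so that the spread within each genotype was larger than the difference between them (-0.19 ± 0.32, 0.818).

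Psme2 was set beside Psme2b, a copy on chromosome 11. Psme2b read 29.9, 17.9 and 33.0 CPM in the controls against 13.95, 17.1 and 31.5 CPM in the knockouts. In control cells it was high where Psme2 was low. The sum of both read 59.8, 55.3 and 54.4 CPM in the controls against 39.4, 51.2 and 49.6 CPM in the knockouts, with no overlap. Its log2 fold change was -0.27 ± 0.09 (edgeR adjusted p = 0.159), in an alternative chosen once the counts had been inspected. How the reads were divided between the copies was not tested.

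**Figure D4:**
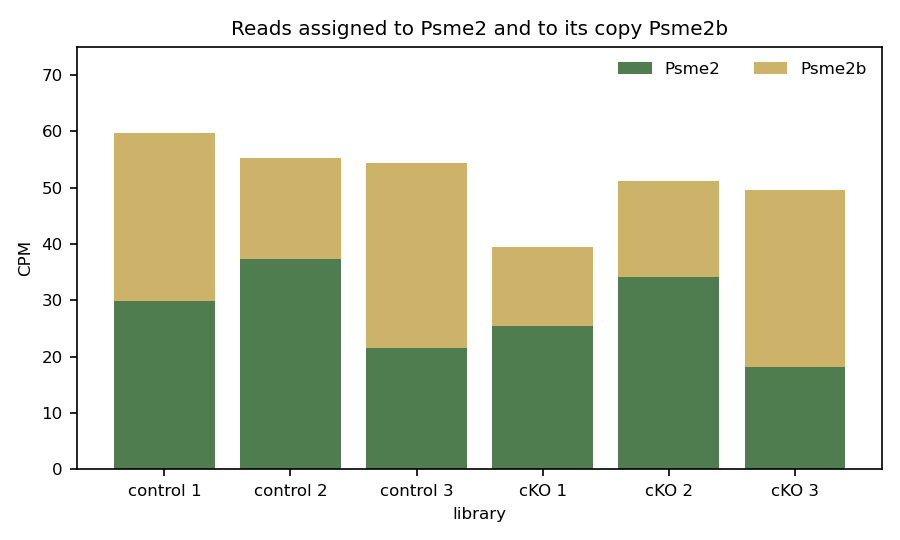
CPM (y axis, from 0) assigned to Psme2 (green) and to its copy Psme2b (yellow), stacked, in each library (x axis). The sum is 54.4 to 59.8 CPM in the control libraries and 39.4 to 51.2 CPM in the cKO libraries, and the division between the copies differs from library to library.

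Levels between subunits were compared per length only. In control cells, FPKM ran from 10.4 to 48.0 over the 14 housekeeping core genes, and from 13.3 to 63.1 over the 17 genes of the base and lid. The immunoproteasome genes were at 2.71 (Psmb9), 11.1 (Psmb8) and 15.4 FPKM (Psmb10). The lengths behind these FPKM follow the merged exons of all transcripts, retained introns included, at 1.15 times their sum in GENCODE M21 in the median. Per kilobase of the longest coding transcript, the control levels were 16.4 to 72.1 CPM per kb for the housekeeping core genes and 8.54 to 26.8 for the immunoproteasome genes. Psmd8 and Psmd2 had the highest FPKM of the 47 genes, 63.1 and 62.6.

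Genes that work with the proteasome but fall outside the name rule had small differences too. Of 19 partner genes measured, 0 passed (6 at an unadjusted p below 0.05, against 17.2% of all genes tested, and 0 with DESeq2), and the median was -0.088. Pomp, the maturation factor of the core, averaged 48.2 ± 1.83 against 41.8 ± 0.804 CPM (-0.20 ± 0.06, edgeR adjusted p = 0.126), and Txnl1, a thioredoxin bound to the regulatory particle, at -0.19 ± 0.07 (0.149). In the list for NRF1 control, 1 of 22 genes rose (1.36% of all genes tested) and 0 fell (1.06%) with edgeR. The median was -0.003, and DESeq2 called 1 higher and 1 lower. Ngly1, the enzyme that deglycosylates NRF1, lay just outside the threshold (-0.35 ± 0.09, edgeR adjusted p = 0.0535, 0.0149 to 0.264 over the alternatives) and was named after its value was seen. The gene that rose was Ogt, the O-GlcNAc transferase, known to modify NRF1 among many proteins, from 262 ± 6.98 to 363 ± 16.4 CPM (0.47 ± 0.06, adjusted p = 0.00146), a call kept whichever single library was dropped (6 of 6 fits). Nfe2l1 itself was at 231 ± 8.93 and 225 ± 4.38 CPM (-0.04 ± 0.06, 0.798).

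Among 26 ubiquitin and p97 genes the median was -0.061. With edgeR 0 rose and 1 fell (1.06% of all genes tested), and with DESeq2 also 0 and 1. The gene that fell with edgeR was Ubxn1, a cofactor of the p97 unfoldase, from 86.3 ± 2.84 to 72.8 ± 1.79 CPM (-0.25 ± 0.06 SE, edgeR adjusted p = 0.044). This call was lost without any single library, with adjusted p up to 0.232. Of 25 genes for MHC class I presentation and its interferon control, 0 passed with edgeR (10 at an unadjusted p below 0.05, against 17.2% of all genes tested), DESeq2 called 1, higher, and the median was 0.020. Irf8, an interferon regulatory factor, was at 0.24 ± 0.07 (0.0888) and Ifngr1, a chain of the interferon gamma receptor, at -0.18 ± 0.06 (0.147). Of 14 heat shock and proteotoxic stress genes 0 passed with edgeR, 6 had an unadjusted p below 0.05 (17.2% of all genes tested) and DESeq2 called 4, all lower (3.24% of all genes). The list's median was -0.134, with Atf4 at -0.28 ± 0.07 (0.0683) and the small heat shock gene Hspb1 at -0.43 ± 0.12 (0.0781).

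Transcript length moved with the difference between genotypes. In 10 equal groups by length of the genes above 3 log2 CPM, which hold 42 of the 47 proteasome genes, the median log2 fold change over all genes ran from -0.117 in the shortest to 0.050 in the longest. The share of all genes called lower ran from 4.55% in the shortest group to 0.423% in the longest. The 9 proteasome genes of the shortest group had a median of -0.192. The 10 in the group of 3146 to 3936 bases had a median of -0.135, against -0.072 for all genes there. In each of the 9 groups that held proteasome genes, their median was below that of all genes. Of these, groups 5 and 9 held just 1 proteasome gene each and groups 6 and 7 held 2 each. With each library's trend over length removed, the median of the 47 genes was -0.085 against 0.035 for all genes, and 38 were negative.

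**Figure D5:**
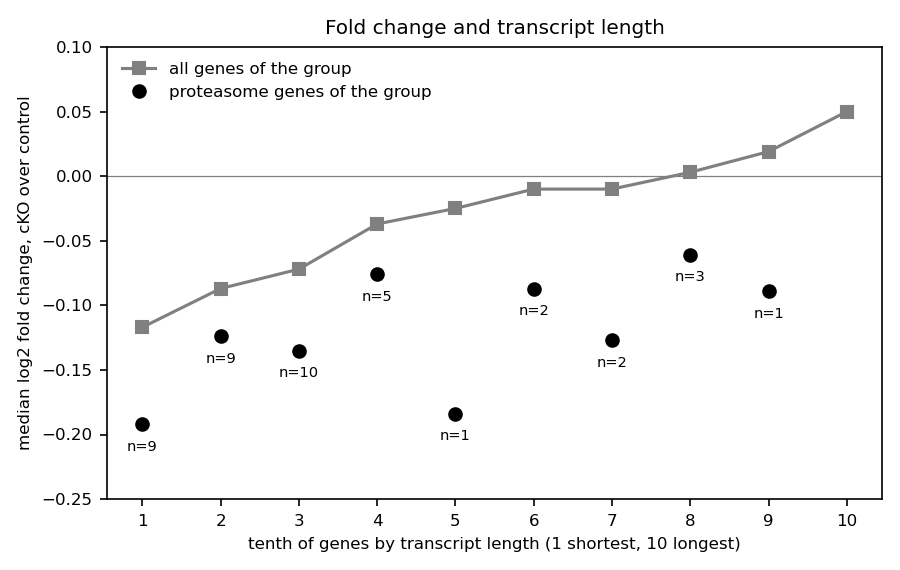
Median log2 fold change, cKO over control (y axis), in 10 equal groups of genes by transcript length (x axis, from shortest to longest), for all genes (squares) and for the proteasome genes in the group (points, with their number). The squares rise from -0.117 to 0.050, and the points lie below the squares in all 9 groups that hold proteasome genes.

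Markers of other cells moved with genotype beside these results. Of 9 listed neutrophil markers 6 passed the filter on low counts and were tested. Of these 4 rose (Ngp, Ltf, S100a8 and S100a9), against 1.36% of all genes tested. The summed level of the neutrophil markers was 20.5 to 25.65 CPM in control and 47.01 to 60.9 CPM in cKO libraries. Camp, Elane, Mpo and Retnlg lay below 1 CPM and Ly6g was not analysed here. The call of S100a8 (edgeR adjusted p = 0.0401) held in 1 of the 6 fits without a library, with adjusted p up to 0.186, and those of Ngp, Ltf and S100a9 in all 6. Of 7 listed dendritic markers 3 were tested and 1 rose, Itgax, which macrophages also express. The dendritic sum was 315 to 378 CPM in control and 521 to 584 CPM in cKO libraries, while Flt3, Xcr1, Siglech, Cd209a and Ccr7 lay below 1 CPM. Of 4 B cell markers analysed 2 were tested and 1 rose, Ighm. The B cell sums were 15.0 to 17.4 CPM against 22.1 to 30.4 CPM, with Cd79a, Cd79b and Pax5 below 1 CPM. The call of Ighm was lost in 3 of the 6 such fits, without control replicate 2 or 3 or cKO replicate 1 (edgeR adjusted p = 0.0605, 0.0672 and 0.0815). Of 8 T and NK markers 4 were analysed, 3 of them were tested and 0 passed (50.5 to 61.1 CPM against 50.9 to 58.8 CPM). All 5 erythroid markers analysed lay below 1 CPM. Of 6 stroma markers 0 passed with edgeR, all 6 were positive, and the sums were 3421 to 3994 CPM against 3224 to 5171 CPM. DESeq2 called 2 stroma markers higher (371 of 13237 genes over all). In 2, Pdgfra and Pdgfrb, all cKO libraries lay above all control libraries (11.1% of all genes tested). Of 7 macrophage markers 1 fell, Lyz2, whose means of 17105 and 7783 CPM make up most of the difference between the sums (22500 to 25860 CPM against 14080 to 14480 CPM). The other macrophage markers did not pass with edgeR, and Fcgr1, Mertk and Itgam were positive. DESeq2 called 1 macrophage marker higher and 1 lower. Of 10 osteoclast markers 0 passed in the main edgeR fit or with DESeq2, and all 10 were negative. Their sum was 11790 to 15310 CPM in control and 8535 to 12210 CPM in cKO libraries. Without cKO replicate 3, Acp5, Ctsk, Mmp9, Dcstamp, Ocstamp and Nfatc1 were called lower (edgeR adjusted p = 0.00438 to 0.045). Each passed in just that 1 of the 6 fits without a library. Calcr, Atp6v0d2, Itgb3 and Oscar passed in 0 of the 6. Among the other edgeR and limma-voom alternatives, Acp5, Ctsk, Mmp9, Dcstamp, Ocstamp, Nfatc1, Calcr and Oscar passed in at least 1. Their lowest adjusted p there ran from 0.000568 in Acp5 to 0.0278 in Calcr, with 0.00193 in Oscar. Atp6v0d2 and Itgb3 passed in none of the fits (lowest 0.557 and 0.113). The part of these cells in the proteasome result was not tested.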

How the data were processed

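Polyadenylated RNA of 3 control and 3 cKO libraries was compared. Per the submitters' processing notes, cutadapt 1.9 and build mm10 were used; the sources used here name no aligner, counter or strand setting. Per the file headers, the authors deposited read counts and FPKM for each gene and library. Counts were tested with edgeR 4.0.16 (R 4.3.3) quasi-likelihood after filterByExpr (minimum count 10, minimum total 15) and TMM, with Benjamini-Hochberg adjustment over all genes and a threshold of 0.05. FPKM served only for levels between genes. Alternatives were DESeq2 1.42.0, limma-voom 3.58.1, other scalings, no filter, a replicate block, removal of each library's length trend, and each library left out. On simulated data for this comparison (13131 genes), edgeR recovered 53% of 100 genes changed by 0.5 and 84% of 100 changed by 1 on the log2 scale, with 14 false calls. Changes as small as those of the 47 genes (-0.41 to 0.23) were not simulated, so their recovery is not known. The 47 members and all lists were chosen with earlier results of these data known. Genes named by rule are Slc11a2 and Lyz2, called members, the catalytic pairs, the extremes of each role, Psmd14, Psmd4, and called companion genes or the 2 with the smallest raw p; other members were named after their values were seen. All 47 identifiers were found in GENCODE M21, 40 with the same coordinates. Over all genes, same-numbered libraries were not correlated (r = -0.025, -0.018 and -0.004), which cannot exclude pairing in some genes. The osteoclast marker median, for example, was highest in replicate 3 of both genotypes (0.219 in control and -0.064 in cKO). Replicates of a genotype differed beyond sampling noise (chi-square per degree of freedom 16.2 to 36.2). The protein alignment planned for the catalytic pairs was not run. Reads of Psme2b and Psma5-ps were added to Psme2 and Psma5 in 1 further fit, chosen after seeing the data.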

Additional observations from a re-analysis of the deposited data

How the results depend on the processing

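Calls among proteasome genes were few and depended on the fit, while 0 were called higher in every fit. The number called lower, 2 here, was 6 with DESeq2, 4 with limma-voom, 1 with RLE size factors, 0 with library totals only, 1 with no filter and 1 with the length trend removed, with or without the replicate block, and 0 to 1 with a library left out. Over all genes the number of calls was 800 with DESeq2, 748 with the length trend removed and the replicate block, and 59 to 624 with a library left out. With the replicate block alone 673 genes and 3 proteasome genes were called, Psmb5 being the gene gained. In the labels the libraries share only a number. No control library correlated best over all genes with the cKO library of its own number, which cannot exclude pairing in some genes. The median of the 47 genes moved to -0.085 with the length trend removed, with or without the block, and was -0.17 to -0.119 with a library left out. Over single proteasome genes and alternatives, 648 values kept direction and side of the threshold, 9 newly passed, 19 no longer passed and 29 changed sign. The sign turned in 10 genes. With the length trend removed, without and with the block, Psmc5 was at 0.014 and 0.014, Psmc6 at 0.046 and 0.046, Psmd7 at 0.027 and 0.026 and Psme1 at 0.002 and 0.004. Psmc6 was also at 0.002 with RLE and 0.028 with library totals, and Psmd9 at -0.018 with limma-voom. With a library left out the ranges were -0.059 to 0.094 for Psmb10, -0.034 to 0.052 for Psmc3, -0.07 to 0.036 for Psmc6, -0.074 to 0.001 for Psmd3, -0.047 to 0.082 for Psmd4, -0.104 to 0.102 for Psmd9 and -0.44 to 0.01 for Psme2. The cause of these changes was not tested.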

Other observations

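Proteasome genes and osteoclast markers differed in which cKO library stood nearest to the controls. Relative to the control mean, the median of the 10 osteoclast markers read -0.075, -0.166 and 0.219 on the log2 scale for the controls (replicates 1 to 3) against -0.513, -0.642 and -0.064 for the knockouts. For the 47 proteasome genes cKO replicate 2 was nearest, at -0.074, and cKO replicate 3 stood at -0.162. The osteoclast value of cKO replicate 3 lay inside the osteoclast range of the controls. The proteasome value of the same library lay below the proteasome range of the controls. For osteoclast markers, replicate 3 was the highest library of each genotype. A link between osteoclast markers and proteasome genes was not tested. The 7 macrophage markers had medians of -0.032, -0.067 and -0.013 in cKO replicates 1 to 3.

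The division of reads between Psme2 and Psme2b fell at different levels in libraries of the same genotype. Psme2 took 50.0%, 67.6% and 39.4% of the summed reads of the controls (replicates 1 to 3) against 64.6%, 66.6% and 36.5% of those of the knockouts. The exact binomial 95% interval, which covers counting error only, was 65.95% to 69.2% in control replicate 2 and 37.7% to 41.1% in control replicate 3, so these libraries differed by more than counting error. A similar check of Psma5 with its processed pseudogene Psma5-ps found the copy at 2.63 to 3.94 CPM in control and 2.14 to 2.33 CPM in cKO libraries, far below Psma5 itself. With the pseudogene's reads added, Psma5 had a log2 fold change of -0.31 ± 0.11 (SE, edgeR adjusted p = 0.179).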
